A study of Homo sapiens with 4 samples.

Results

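The domain around MYC was examined in the human cell line H69 for DNA bound by YAP and by TEAD1. The domain runs from 127900000 to 130700000 on chromosome 8 (build hg19), and a peak was counted as a member where its centre lay inside it. It held 82 of the 61551 peaks in the 3 lists: 74 of 48962 TEAD1 peaks, 6 of 10118 peaks of the YAP antibody named Avruch, and 2 of 2471 peaks of the YAP antibody from Santa Cruz. The interval was set by position around the gene and not from the peaks, though with earlier results of these data known. MYC itself spans 128748315 to 128753680 on the plus strand, so that 848.3 kb of the domain lie upstream of its start and 1951.7 kb on the downstream side.

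The data came from chromatin immunoprecipitation and sequencing (ChIP-seq), in which crosslinked DNA fragments held by an antibody are sequenced and places with an excess of reads are listed as peaks. All libraries were from H69 cells with no treatment or genotype named in the labels. Crosslinking took 10 min in 1% formaldehyde, and the chromatin was sheared to about 250 bp. H69 is an immortalised line of human bile duct epithelial cells in the published study, whereas the labels give the name alone, and peak lists hold no expression values against which the cell type could be checked. Each antibody had 1 library, with a further library made with unrelated IgG that was not analysed here. The labels call the Avruch and TEAD1 antibodies YAP and TEAD, and the design text gives the names used here. Without replicates no comparison between samples could be tested, and the intervals given below are exact 95% limits for counting error alone. Read depth was not known, so numbers of peaks were not compared between antibodies as a measure of binding.

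MYC encodes a basic helix-loop-helix leucine zipper transcription factor that drives cell growth and division. It lies in a stretch poor in protein-coding genes, and its transcription depends on enhancers spread far to both sides, different ones being active in different tissues. YAP is a coactivator that the Hippo pathway keeps in check, and it has no DNA-binding domain of its own. It reaches DNA mainly through the TEAD factors, which bind enhancers more often than promoters. In the RefSeq gene order of assembly GRCh38.p14, used here for names alone, the gene before MYC is CASC11 and the gene after it is PVT1, both long noncoding RNA genes. The nearest protein-coding genes are POU5F1B, a retrogene related to the pluripotency factor OCT4, before MYC and GSDMC, a member of the pore-forming gasdermin family, after it. Of 21 genes listed for the domain, 20 were matched in that assembly, 10 of them before MYC and 9 after it, and 13 of the 20 were long noncoding RNA genes. Whether a peak lay in an exon, an intron or a promoter was not analysed here.

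No peak of any list overlapped the MYC gene. The TEAD1 peak nearest to the MYC start lay 8.33 kb downstream (chr8:128756464-128756820), beyond the far end of the gene by 2.78 kb. It was among the strongest of the domain, with a score of 402.87, above 97.3% of the TEAD1 list. The score is the authors' value for each peak, has no stated unit and is read here within one list at a time. On the other side the nearest TEAD1 peak was 16.7 kb upstream (chr8:128731464-128731672), and it was weak, with a score of 51.37, above 3.40% of the list. YAP peaks were much farther away. The nearest Avruch peak was 112.5 kb downstream and the nearest one upstream was 248.4 kb away. The nearest Santa Cruz peak was 113.7 kb downstream, and that antibody had no peak on the upstream side of the domain.

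**Figure D1:**
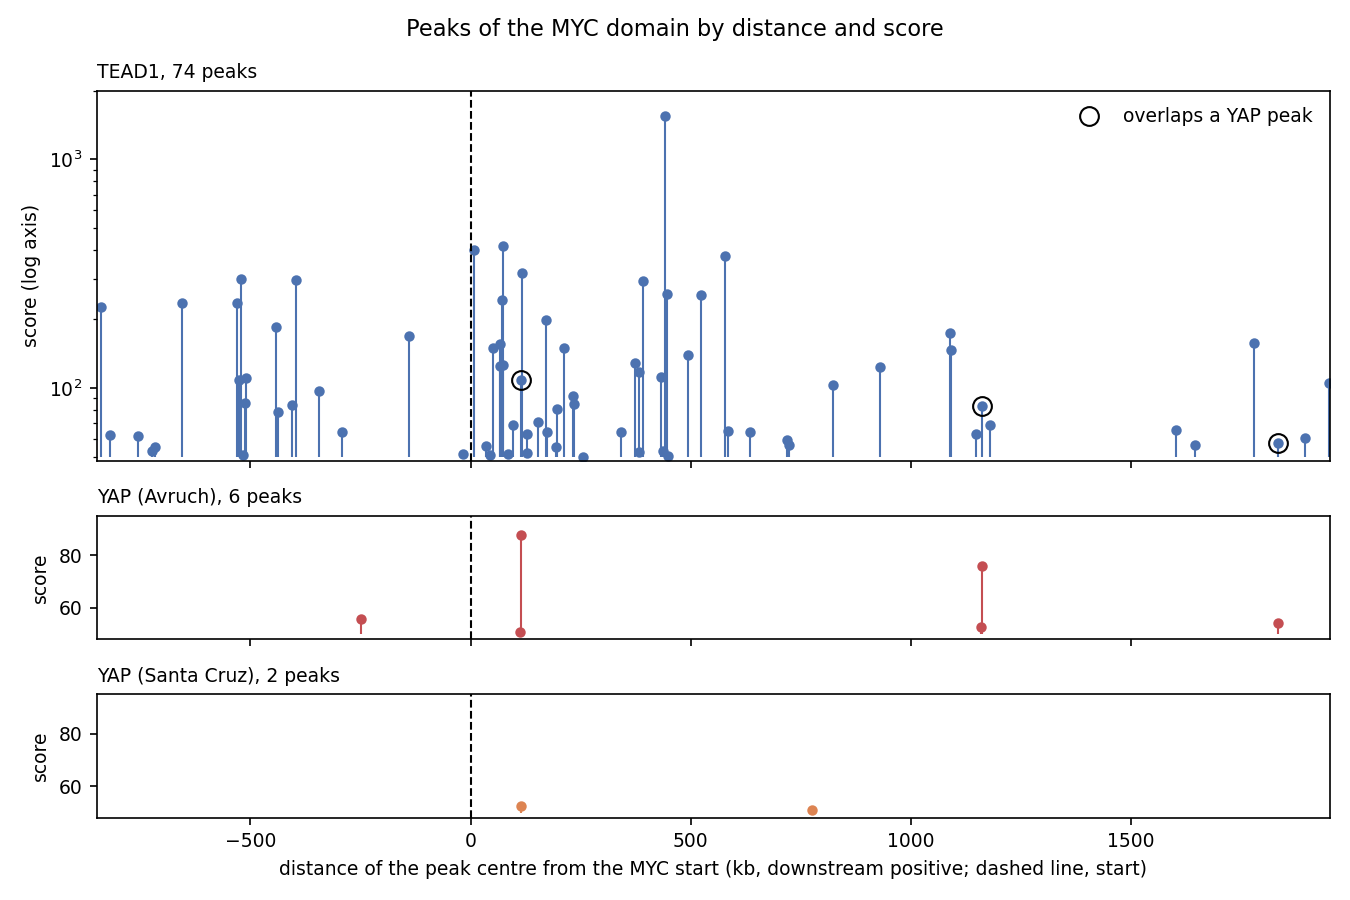
Each stem is a peak of the MYC domain, placed by the distance of its centre from the MYC start (horizontal axis, kb, downstream positive) and by the authors' score (vertical axis, logarithmic for TEAD1 and linear for the YAP antibodies). Circles mark the 3 TEAD1 peaks that overlapped a YAP peak; the TEAD1 peak with a score of 1546.66, 440.9 kb downstream, had none.

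TEAD1 peaks were dense in the 500 kb downstream of MYC. In the 500 kb upstream their density was near the means of the rest of chromosome 8 (13.9 per Mb) and of other autosomal sequence (16.8 per Mb). Within 500 kb of the start, 35 TEAD1 peaks lay downstream (70.0 per Mb, 48.8 to 97.4) and 8 upstream (16.0 per Mb, 6.91 to 31.5), and these intervals did not overlap. They treat peaks as independent, whereas 21 of the 35 downstream peaks lay in the clusters described below, so they are too narrow. The first 100 kb after the start held 11 TEAD1 peaks and the next 100 kb held 9. Then followed 4, 5, 6 and 3 peaks per 100 kb, out to 600 kb. Upstream, each of the 3 nearest 100 kb bins held 1 TEAD1 peak. The fullest upstream bin, from 500 to 600 kb, held 6.

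Among 5573 tiles of 500 kb over the other autosomal sequence, 108 (1.94%) held at least the 35 TEAD1 peaks found in the 500 kb after the MYC start. The tiles had a median of 6 TEAD1 peaks. At least the 8 peaks of the 500 kb before the start were found in 39.8% of the tiles. The distance of 500 kb was a set alternative to the whole domain, but splitting it by side was done with the positions of the peaks known.

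**Figure D2:**
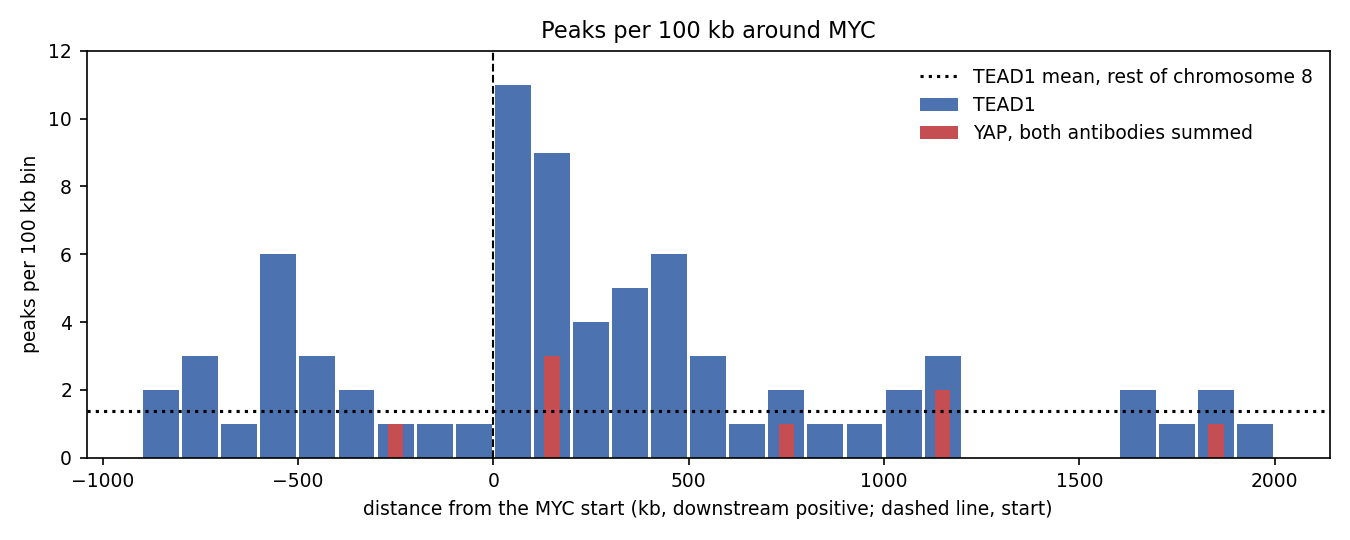
Bars give the number of peaks per 100 kb bin by distance from the MYC start (horizontal axis, kb), with TEAD1 as wide bars and the YAP antibodies summed as narrow bars in front; the outermost bins are cut by the edges of the domain. The dotted line is the mean of TEAD1 over the rest of chromosome 8, and the 100 kb after the start, with 11 peaks, stand highest.

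Over the whole domain, 54 of the 74 TEAD1 peaks (73.0%) lay downstream, on the PVT1 side. The downstream side is longer, and per Mb there were 27.7 TEAD1 peaks downstream (20.8 to 36.1) and 23.6 upstream (14.4 to 36.4), with intervals that overlapped. At the reach of the upstream side, 848.3 kb, the downstream side held 42 TEAD1 peaks and the upstream side 20. Beyond 600 kb downstream the density was 11.8 per Mb, from 16 peaks. The limit of 600 kb was not a set alternative, and it falls where the counts per 100 kb drop from 3 to 1. Contrasts across it are therefore not independent of the peak positions. The longest stretch without a TEAD1 peak was 421.6 kb (chr8:129928120-130349687), from 1179.8 to 1601.4 kb after the start, and it held no YAP peak either. The next longest were 158.9 kb, also downstream, and 152.7 kb, from 292.8 to 140.1 kb before the start. That upstream stretch held 1 Avruch peak.

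The domain as a whole had 26.4 TEAD1 peaks per Mb (20.8 to 33.2), against 13.9 per Mb in the rest of chromosome 8, a ratio of 1.90 (1.49 to 2.39). Against other autosomal sequence, at 16.8 per Mb, the ratio was 1.57 (1.24 to 1.98). YAP peaks gave ratios below 1 with intervals that included 1. For Avruch the ratio to the rest of chromosome 8 was 0.664 (0.244 to 1.45), from 2.14 peaks per Mb against 3.23. For Santa Cruz it was 0.771 (0.0933 to 2.78), from 0.714 per Mb against 0.927. That background includes 95 Avruch and 38 Santa Cruz peaks from a single window as long as the domain (chr8:84015241-86815241). Against other autosomal sequence the ratios were 0.641 (0.235 to 1.39) for Avruch and 0.914 (0.111 to 3.30) for Santa Cruz. Of 986 other autosomal windows as long as the domain, 160 (16.2%) held at least 74 TEAD1 peaks and 591 (59.9%) held at least 6 Avruch peaks. At least 2 Santa Cruz peaks were found in 397 of them (40.3%).

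Windows with a like number of TEAD1 peaks mostly held more Avruch peaks than the MYC domain did, but not more Santa Cruz peaks. The 127 windows with 0.8 to 1.2 times its TEAD1 peaks had a median of 12 Avruch peaks (quartiles 9 and 16), and 13 of them held 6 or fewer. Santa Cruz peaks in the same windows had a median of 2, the number found around MYC, and 76 windows held 2 or fewer. Among the 160 windows with at least as many TEAD1 peaks, the median was 16 for Avruch, and 9 windows held 6 or fewer. For Santa Cruz the median was 3, and 58 of the 160 held 2 or fewer. The MYC domain thus stood in the lower part of the order for Avruch at its number of TEAD1 peaks, and near the middle for Santa Cruz.

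**Figure D3:**
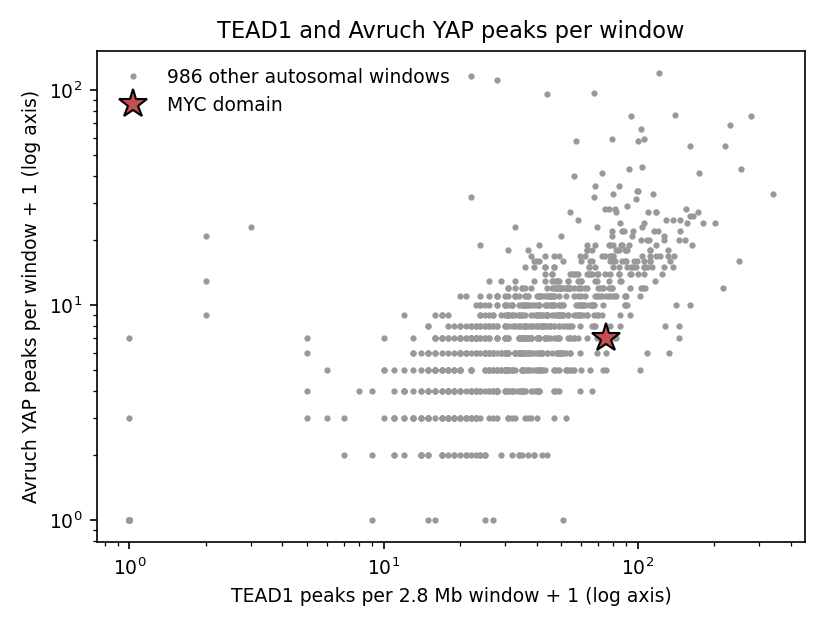
Each grey point is one of 986 autosomal windows of the length of the domain, with TEAD1 peaks on the horizontal and Avruch YAP peaks on the vertical axis, both as number plus 1 on logarithmic axes. The star is the MYC domain, with 74 TEAD1 and 6 Avruch peaks, and it lies near the lower edge of the points at that number of TEAD1 peaks.

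TEAD1 peaks around MYC had higher scores than TEAD1 peaks in general. Their scores ran from 50.1 to 1546.66 with a median of 89.2 (order-statistic interval 68.96 to 116.97), against 67.1 over the whole list and 67.4 over the rest of chromosome 8. By part, the median was 91.4 for the 20 upstream peaks and 110.0 for the 38 within 600 kb downstream. The 16 peaks beyond 600 kb downstream had a median of 67.4, near that of the list. As said above, this limit was not a set alternative. With the TEAD1 list divided at its quartiles of score, the top division took 36 of the 74 members (48.6%), and the others took 15, 13 and 10 of them from the lowest up. Of the members, 18 (24.3%, 15.1 to 35.7) were in the top 10% of the list by score, where the whole list has 10.0% by definition. The members were also wider, with a median of 360 bp against 274 bp. Score and width rose together in the domain (Spearman's rho 0.836 over 74 peaks of 1 library) as in the whole list (0.656 over 48962).

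**Figure D4:**
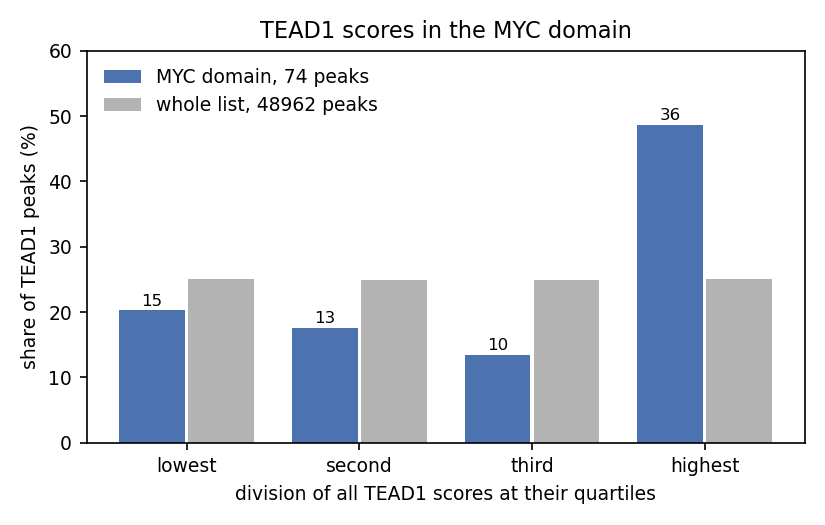
Bars give the share of TEAD1 peaks (vertical axis, %) that fall between the quartiles of all TEAD1 scores (horizontal axis, from lowest to highest), for the 74 peaks of the MYC domain and for the whole list, with the number of domain peaks printed above its bars. The highest division holds 36 of the 74.

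The strongest TEAD1 peak of the domain lay 440.9 kb downstream of the MYC start (chr8:129188716-129189786). It was 1071 bp wide and scored 1546.66, which placed it at rank 111 of 48962. It was the only member at least 1 kb wide (1 of 74, 1.35%, beside 1.08% of the list). The nearest Avruch peak was 326.5 kb from its edge. Of the 111 TEAD1 peaks with at least its score, 55 (49.5%) overlapped a YAP peak. Among the 60 of these that were at most 1.5 times as wide, 5 did (8.33%).

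The next strongest were spread over both sides. The peak 74.3 kb downstream scored 417.63 (chr8:128822293-128822878), and the peak beside MYC, already described, scored 402.87. They were followed by peaks 578.7 kb downstream (378.92), 118.0 kb downstream (317.63), 520.7 kb upstream (298.43) and 395.8 kb upstream (296.21). The last of the 10 highest lay 391.9 kb (294.34), 447.4 kb (258.21) and 522.7 kb (256.31) downstream. None of these 10 overlapped a YAP peak of either antibody. The same held for all 18 members in the top 10% of the list, among which 0 overlapped YAP (0%, 0 to 18.5). Over the whole list 451 of 4896 such peaks (9.21%) did, a share inside that interval, so a difference was not detectable with 18 peaks.

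TEAD1 peaks of the domain fell into 7 clusters, a cluster being 3 or more neighbouring peaks with no more than 10 kb between one and the next. They took in 28 of the 74 members (37.8%, 26.8 to 49.9), beside 29.3% of the whole TEAD1 list and 25.5% of the rest of chromosome 8. The interval included the share of the whole list and left out that of the rest of chromosome 8. The first of these calls depended on the settings. It held with gaps of at most 5 kb (14 of 74, 18.9%, 10.7 to 29.7, list 17.2%). It also held with gaps of at most 20 kb (41 of 74, 55.4%, 43.4 to 67.0, list 46.8%). The share was above that of the list, with an interval that left it out, among the 50% of TEAD1 peaks with the highest scores (16 of 46, 34.8%, 21.4 to 50.2, list 18.6%), with peaks joined over gaps of at most 1 kb (23 of 67, 34.3%, 23.2 to 46.9, list 20.3%) and within 500 kb of the MYC start (21 of 43, 48.8%, 33.3 to 64.5, list 29.3%). Peaks of a cluster are not independent, so these intervals are too narrow. With a fixed gap, more peaks fall into clusters where peaks are denser. The domain had 1.90 times the TEAD1 density of the rest of chromosome 8. The clustered share is therefore not separate from density, and clustering beyond density was not tested. The clusters were 1 upstream and 6 downstream. The one at the downstream edge had 1 of its 3 peaks inside the domain. Over the whole list, clusters had a median of 3 peaks, and 500 of 3263 (15.3%) had at least the 6 peaks of the largest one here.

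The largest cluster was the upstream one, with 6 peaks over 19.4 kb (chr8:128218339-128237691), 510.6 to 530.0 kb before the MYC start. Its scores ran from 50.83 to 298.43. A cluster of 5 peaks packed into 8.58 kb lay 66.0 to 74.6 kb after the start (chr8:128814302-128822878), with scores from 125.06 to 417.63; in each of the other 6 clusters the lowest score was at most 60.3. A further cluster of 5 peaks spanned 17.4 kb around the strongest member (chr8:129179734-129197107), 431.4 to 448.8 kb after the start, with scores from 50.58 to 1546.66. None of these 3 held a YAP peak within its span.

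YAP overlapped TEAD1 at 3 places in the domain, all downstream of MYC, so that 3 of 74 TEAD1 peaks (4.05%, 0.844 to 11.4) carried a YAP peak. The whole list had 3.59% and the rest of chromosome 8 had 4.36%, and the share around MYC was near both. All 3 were overlapped by Avruch peaks (beside 3.11% of the list), and 1 by a Santa Cruz peak as well (1.35%, beside 1.14%). On the upstream side, 0 of 20 TEAD1 peaks overlapped YAP (0%, 0 to 16.8), an interval that also included the share of the list.

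The site found with all 3 antibodies lay 113.8 kb downstream of the MYC start (chr8:128861886-128862321), 1 of 323 such TEAD1 peaks in the list (0.660%) and 1 of 31 on chromosome 8. Its TEAD1 peak was 436 bp wide and scored 108.42, above 81.1% of the TEAD1 list. The Avruch peak there (chr8:128861925-128862209) lay wholly inside it, with its centre 36.5 bp from the TEAD1 centre, and scored 87.55, above 86.4% of its list. The Santa Cruz peak (chr8:128861931-128862086) lay wholly inside the Avruch peak and scored 52.36, above 14.3% of its list. Both antibodies against YAP had their highest score of the domain there. The site opened a cluster of 4 TEAD1 peaks (chr8:128861886-128877006), the sole cluster of the 7 with a YAP peak in its span. The strongest TEAD1 peak of that cluster, with a score of 317.63, lay 118.0 kb after the start and had no YAP peak.

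The other shared sites were far from MYC and were found with Avruch alone. At 1161.3 kb downstream (chr8:129909480-129909757), a TEAD1 peak with a score of 83.13 held an Avruch peak of 141 bp that scored 75.95, above 76.8% of its list. At 1834.2 kb downstream (chr8:130582415-130582617), the TEAD1 score was 57.42 and the Avruch score 54.11, which were above 27.4% and 11.6% of their lists. Each of these Avruch peaks lay wholly inside its TEAD1 peak. In both lists the scores were highest at 113.8 kb and lowest at 1834.2 kb.

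**Figure D5:**
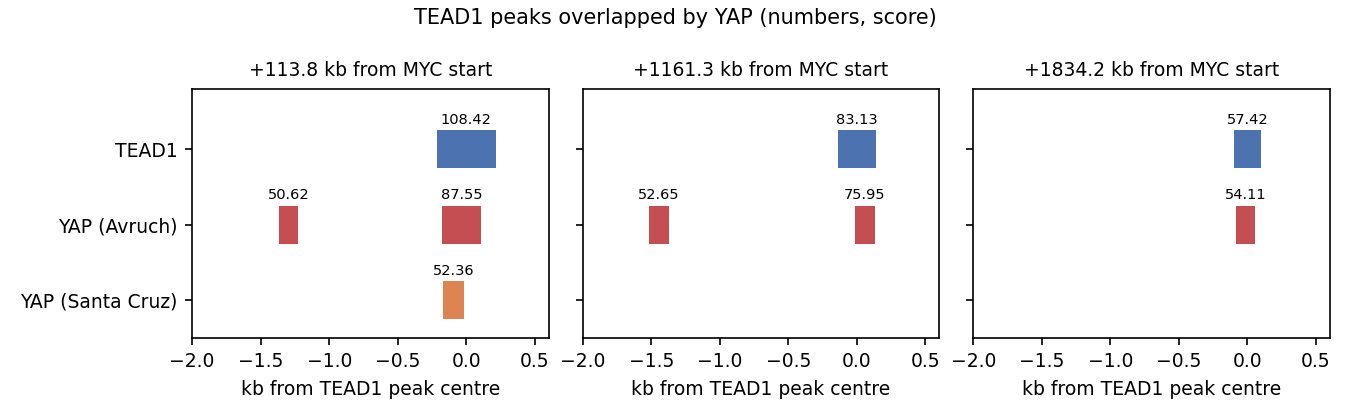
The 3 panels show the peaks of each antibody (rows) around the TEAD1 peaks that overlapped YAP, by distance from the TEAD1 peak centre (horizontal axis, kb), with the authors' score above each bar. The site 113.8 kb from MYC has peaks of all 3 antibodies, and at the sites at 113.8 and 1161.3 kb a weaker Avruch peak lies between 1 and 2 kb before the TEAD1 peak.

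Seen from the YAP lists, 3 of 6 Avruch peaks overlapped TEAD1 (50%, 11.8 to 88.2), beside 19.4% of the whole Avruch list. For Santa Cruz it was 1 of 2 peaks (50%, 1.26 to 98.7), beside 30.9% of its list. Each interval included the share in its whole list, so no difference was detectable with so few peaks. The YAP antibodies overlapped each other at the site 113.8 kb downstream. That is 1 of 6 Avruch peaks (16.7%, 0.421 to 64.1), beside 8.16% of the list and 15.1% in the rest of chromosome 8. It is also 1 of 2 Santa Cruz peaks (50%, 1.26 to 98.7), beside 28.2% and 43.6%. Each interval included both of these shares.

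The 4 YAP peaks that did not overlap TEAD1 were weak, each above at most 15.4% of its list by score. An Avruch peak 112.5 kb downstream (chr8:128860738-128860874, score 50.62, above 2.76% of the list) lay 1050 bp before the Avruch peak of the site with all 3 antibodies. Another, 1159.9 kb downstream (chr8:129908101-129908249, score 52.65), lay 1357 bp before the shared Avruch peak at 1161.4 kb. Thus 4 of 6 Avruch members (66.7%, 22.3 to 95.7) had a further Avruch peak at most 2 kb away. The share was 21.5% in the whole list and 31.7% in the rest of chromosome 8, and the interval included the latter. Both peaks of a pair are counted, each as the neighbour of the other, so the interval is too narrow. In each pair the peak inside TEAD1 had the higher score. Apart from these pairs, an Avruch peak 248.4 kb upstream (chr8:128499826-128499974, score 55.59) was 44.3 kb from the nearest TEAD1 peak. A Santa Cruz peak 774.6 kb downstream (chr8:129522841-129522982, score 51.15) was 48.4 kb from the nearest TEAD1 peak and 385.1 kb from the nearest Avruch peak.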

How the data were processed

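The labels name 4 ChIP-seq libraries of H69 cells, and the peak lists of 3 were used. Reads were aligned with Bowtie2 to hg19, per the submitters' processing notes. The deposited lists have 5 columns, with a score for each peak given by the authors, and the peak names carry the name of the caller MACS. Its version, settings and control library were not given in the sources used here, nor was the read depth.

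Peaks were sorted by the position of their centre, counted as shared at an overlap of at least 1 bp, and compared within each list with all its peaks, with chromosome 8 and with windows tiled over the span of peaks on the autosomes, assembly gaps included. Shares have exact binomial (Clopper-Pearson) 95% intervals and densities exact Poisson ones, which treat peaks as independent. Python 3.11.15 with scipy 1.17.1 was used, and the overlap and cluster functions were tested on simulated lists. All YAP members, the 10 highest-scoring TEAD1 members, shared and nearest peaks, the 3 largest clusters and the longest peak-free stretch were named. The alternatives were other overlap rules, cluster gaps, backgrounds and domain limits, joined peaks and the 50% of peaks with the highest scores. The domain, the gene list and these choices were made with earlier results of these data known. Peaks by gene, planned for the domain and for the MYC network, were not analysed here, since no hg19 annotation was used.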

Additional observations from a re-analysis of the deposited data

How the results depend on the processing

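Of 60 values recomputed under alternatives for 15 results, 45 stayed within the counting interval of the reported value, or within 1.5 times it for counts and for the distance to MYC, and 15 moved. In the 50% of each list with the highest scores, the domain held 46 TEAD1, 2 Avruch and 0 Santa Cruz peaks. Both of those Avruch peaks overlapped TEAD1 (100%) and neither a Santa Cruz peak (0%), no Santa Cruz share could be given, and the Santa Cruz density ratio was 0. Within 500 kb of the MYC start there were 43 TEAD1, 3 Avruch and 1 Santa Cruz peaks. That Santa Cruz peak overlapped both TEAD1 (100%) and Avruch (100%), and the TEAD1 density ratio to the rest of chromosome 8 was 3.08. With an overlap of 50% of both peaks, the share of Santa Cruz peaks with TEAD1 was 0%. The clustered share of TEAD1 members was 18.9% with gaps of at most 5 kb (whole list 17.2%) and 55.4% with gaps of at most 20 kb (whole list 46.8%). It was 34.8% in the 50% with the highest scores (whole list 18.6%), 34.3% with peaks joined over gaps of at most 1 kb (whole list 20.3%) and 48.8% within 500 kb of the start (whole list 29.3%). In these last 3 settings the interval left out the share of the list, which the reported one (26.8 to 49.9) and those with other gaps included. The values that moved did so in a smaller region, with fewer peaks, with a stricter overlap or with other gaps. Why each one moved was not tested. Few YAP peaks limit every YAP share here. No paired analysis was possible because each antibody had 1 library.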

Other observations

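An Avruch peak lay within 10 kb of 4 of the 74 TEAD1 peaks (5.41%), and this held for 208 of 1996 (10.4%) in the rest of chromosome 8. The median distance from a TEAD1 peak to the nearest Avruch peak was 124.6 kb in the domain and 97.5 kb elsewhere on the chromosome. For Santa Cruz, 2 of 74 TEAD1 peaks (2.70%) had a peak within 10 kb, against 5.11% elsewhere on the chromosome, while the medians stood the other way, at 268.7 kb in the domain and 622.3 kb elsewhere. TEAD1 peaks also lay closer to each other, with a median gap of 18.0 kb against 27.3 kb. No interval was computed for these shares and distances, so differences between the domain and the rest of the chromosome were not tested. The rest of chromosome 8, the background of these shares and distances, included a window as long as the domain (chr8:84015241-86815241) with 95 Avruch and 38 Santa Cruz peaks. The medians over the 986 autosomal windows were 7 Avruch and 1 Santa Cruz peaks. Shares and distances without that window were not computed.

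The limits of the domain cut through no peak. The outermost TEAD1 peaks inside were 8.69 kb from the lower limit (score 225.78) and 1.92 kb from the upper one (score 104.61). The nearest TEAD1 peak outside the lower limit was 12.2 kb away (score 52.13). The nearest beyond the upper limit, 4.81 kb away with a score of 98.72, belonged to the same cluster as the last peak inside.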
